A study of Mus musculus with 30 samples.

Results

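The 9 neuronal calcium sensor genes described here are Hpca, Hpcal1, Ncald, Hpcal4, Vsnl1, Ncs1, Cabp1, Cabp7 and Tesc, out of 24883 rows in an expression table of the dorsal CA1 (dCA1) of the mouse hippocampus. The group was chosen by its measured FPKM differences between trained and home cage mice, in which Cabp7, Hpca and Tesc were higher and Hpcal1 lower, and relatives were added by name. Levels of trained against home cage mice are therefore given as a description. Tests are given for the comparisons between trained conditions, which share libraries with those levels and are not wholly independent of the choice. Each of the 9 genes had 1 row and passed the filter of a mean of at least 1 FPKM, as did 13184 rows in all.

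RNA was sequenced from 30 young adult male C57BL/6J mice, 1 library per mouse and 6 mice per condition, all labeled wild type. The labels name the dorsal hippocampus as the tissue, and the methods of the study name its CA1 part. VEH-HC mice received the transfection reagent in vivo-jetPEI without DNA and stayed in the home cage. VEH-T10 and VEH-T3 mice received the same vehicle and were trained in object location memory (OLM), in which a mouse explores an arena with a pair of identical objects, for 10 min (threshold, enough for long-term memory) or 3 min (subthreshold). Y397F-T10 mice were trained for 10 min and expressed HA-tagged mouse CREST with the point mutation Y397F (tyrosine to phenylalanine). Y397D-T3 mice were trained for 3 min and expressed CREST with the point mutation Y397D (tyrosine to aspartic acid). The labels call these changes phospho-null and phospho-mimetic. The study could not detect phosphorylation of this tyrosine and names both only as point mutants. CREST, also called SS18L1, is a calcium-responsive transactivator that binds chromatin remodeling and acetyltransferase complexes. Both plasmids used the miniCaMK2 promoter, which favors excitatory neurons, and were infused 3 days before training according to the labels, so that every plasmid mouse also kept its own Crest. Tissue was taken 1 h after training. No condition combined a plasmid with the home cage, the other training period or an unmutated CREST, so a plasmid and a point mutation cannot be told apart. By the methods of the study, home cage mice had handling only, while the OLM procedure also included habituation to the arena. Habituation and training therefore cannot be told apart in comparisons with VEH-HC.

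Neuronal calcium sensors are small EF-hand proteins that bind calcium and then change shape, which in most members exposes a lipid anchor or a binding surface and moves the protein to membranes or to a partner. Hippocalcin (Hpca) is known as an abundant protein of hippocampal pyramidal neurons, where it takes part in the slow afterhyperpolarization and in synaptic depression. Hpcal1, Ncald, Hpcal4 and Vsnl1 belong to the same visinin-like branch, and Ncs1 is the mammalian form of fly frequenin. Cabp1 and Cabp7 resemble calmodulin more closely: Cabp1 (caldendrin in its long form) regulates calcium channels and inositol trisphosphate receptors, and Cabp7 (calneuron 2) acts at the Golgi. Tesc (tescalcin) is a calcineurin B homologous protein that binds the sodium/proton exchanger NHE1.

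In GENCODE (GRCm38), Hpca lies on chr4:129111570-129122036 (minus strand) and Hpcal4 on chr4:123183227-123194701 (plus). Hpcal1 (chr12:17690856-17791933, plus) and Vsnl1 (chr12:11325242-11436613, minus) share chromosome 12, and Tesc (chr5:118027743-118061878, plus) and Cabp1 (chr5:115168689-115194381, minus) share chromosome 5. Cabp7 lies on chr11:4736892-4746778 (minus), Ncald on chr15:37366175-37792570 (minus) and Ncs1 on chr2:31245823-31295989 (plus). Among the longest coding sequences of GENCODE, Hpca shared 86.1% of aligned bases with Hpcal1 and 79.5% with Ncald, and Hpcal4 shared 82.1% with Vsnl1. The pairs of Cabp7 or Tesc with any other member came to between 38.9% and 50.4%. The longest identical run in any pair was 46 bases, between Hpca and Ncald. Exons of Cabp7 overlapped those of Zmat5 on the opposite strand over 338 bases (12.9% of its exonic bases), and Hpca overlapped Tmem54 over 57 bases (1.95%). Ncald overlapped Gm28221 on the opposite strand over 347 bases and Gm49397 on its own strand over 286 bases. Without a stated strand setting, reads of such pairs cannot be told apart.

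Promoter sequence is shown for the genes on which the results turn, because the study asked how a transcriptional regulator shapes their expression. RefSeq windows of 300 bases (250 before and 50 after an annotated start, GRCm38.p6) existed for 8 of the 9 genes, 12 windows in all, with 3 for Hpca. The 4 windows printed below run 5′ to 3′ on the strand of the gene, and capitals mark the letters GCGGGGGCG, 1 of the forms bound by EGR factors, on either strand.
Hpca, chr4:129121254-129121553, minus strand: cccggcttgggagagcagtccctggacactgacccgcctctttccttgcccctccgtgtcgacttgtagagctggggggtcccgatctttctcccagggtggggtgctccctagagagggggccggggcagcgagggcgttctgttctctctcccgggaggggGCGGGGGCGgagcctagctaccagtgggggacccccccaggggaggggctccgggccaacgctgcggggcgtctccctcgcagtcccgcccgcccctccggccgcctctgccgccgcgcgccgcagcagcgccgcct
Cabp7, chr11:4747130-4747429, minus strand: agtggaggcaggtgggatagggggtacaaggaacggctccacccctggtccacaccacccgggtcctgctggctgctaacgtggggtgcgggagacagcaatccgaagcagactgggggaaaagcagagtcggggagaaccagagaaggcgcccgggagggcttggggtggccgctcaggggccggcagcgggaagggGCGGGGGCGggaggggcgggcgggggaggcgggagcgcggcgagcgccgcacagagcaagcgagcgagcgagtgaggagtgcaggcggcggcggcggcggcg
Tesc, chr5:118027493-118027792, plus strand: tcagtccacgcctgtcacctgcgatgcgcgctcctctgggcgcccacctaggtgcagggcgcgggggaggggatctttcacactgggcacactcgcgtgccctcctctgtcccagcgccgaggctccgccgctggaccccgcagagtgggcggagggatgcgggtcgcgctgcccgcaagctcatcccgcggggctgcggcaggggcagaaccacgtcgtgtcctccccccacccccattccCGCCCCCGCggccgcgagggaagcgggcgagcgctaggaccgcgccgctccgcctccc
Hpcal1, chr12:17690559-17690858, plus strand: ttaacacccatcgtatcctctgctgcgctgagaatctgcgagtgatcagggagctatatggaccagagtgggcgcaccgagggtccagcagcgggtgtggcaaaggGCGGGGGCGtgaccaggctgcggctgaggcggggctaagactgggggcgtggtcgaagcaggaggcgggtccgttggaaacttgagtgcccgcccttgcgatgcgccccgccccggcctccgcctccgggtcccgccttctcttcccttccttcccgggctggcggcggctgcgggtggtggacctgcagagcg
GCGGGGGCG or GCGTGGGCG stood on either strand in 3.5% of all 32851 windows and in 13.3% of the 6011 windows with at least 65% G and C. The 4 windows shown each held it a single time, beginning at position -87 from the start in Hpca, -52 in Cabp7, -8 in Tesc and -144 in Hpcal1, and they held 74.0%, 73.0%, 74.7% and 68.3% G and C. The other 8 windows of the group, including the other windows of Hpca, did not have these letters. The Hpca window shown was the only window of that gene with them. A match in all 4 windows shown therefore depends partly on which Hpca window was shown. In all 4 windows the match overlapped a GC box (GGGCGG), which 35.7% of all windows held. The cAMP response element TGACGTCA (1.8% of all windows), its shorter form TGACG (20.8%) and the AP-1 letters TGACTCA (5.2%) were not found on either strand in the 12 windows. The Cabp7 window lies upstream of the GENCODE start of that gene.

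Depth, similarity of libraries and hippocampal markers are given first, and the library measures to which these genes were related are described further below. Depth relative to the median library, estimated from low FPKM values, ran from 0.809 to 1.24, and the correlation between libraries from 0.938 to 0.991. All 6 CA1 markers were detected, with a summed level between 161 and 240 FPKM, but so were all 8 CA2/CA3 markers (293 to 519 FPKM) and all 6 markers of the dentate gyrus (66.6 to 188 FPKM). In bulk tissue, a smaller share of a cell type and less RNA per cell cannot be told apart. VEH-HC mouse 4 had the highest home cage level of Hpca, Tesc, Cabp1, Ncs1 and Ncald, and values without it are given where they differ. Nothing in the labels says that mice shared a day or a cage, and the sequencing platform of each library is not given in the sources used here.

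Levels of the 9 genes spanned a wide range. FPKM divides fragments by transcript length and by the total of the library. Levels of different genes can be compared only roughly, given the shared sequence and overlapping exons described above. Hpca averaged 1430 FPKM over the 30 libraries and ranked 10 among the 13184 tested rows. Vsnl1 followed at 247 FPKM, Hpcal4 at 189.7, Ncald at 171, Cabp7 at 109.7, Ncs1 at 95.1, Cabp1 at 59.5, Tesc at 48.1 and Hpcal1 at 25.5. Hpca and Vsnl1 did not overlap, and neither did Tesc and Hpcal1. The other neighbors in this order overlapped in range over the 30 libraries. Hpcal4 was above Ncald in 20 of 30 libraries, Cabp7 was above Ncs1 in 23 and Cabp1 was above Tesc in 29, whereas in the pairs Vsnl1 and Hpcal4, Ncald and Cabp7, and Ncs1 and Cabp1 the first was higher in all 30. Differences between the 5 conditions made up between 33.4% (Hpca) and 47.8% (Cabp7) of the variance of Hpca, Cabp7, Tesc and Hpcal1, and between 8.9% (Ncs1) and 25% (Cabp1) in the other 5 genes. Hpca, Cabp7, Tesc and Hpcal1 were chosen by a difference between trained and home cage mice, so their larger shares describe the choice.

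Against the home cage, Hpca was higher in every trained condition. Its lowest, median and highest FPKM were 1077, 1145 and 1522 among VEH-HC mice, 1288, 1478 and 1764 among VEH-T10 mice, 1158, 1438 and 1677 among Y397F-T10 mice, 1077, 1448 and 1653 among VEH-T3 mice, and 1276, 1555 and 2032 among Y397D-T3 mice. The highest home cage value, 1522 FPKM, belonged to VEH-HC mouse 4, and the next was 1245. The medians of VEH-T10, Y397F-T10 and VEH-T3 lay above 5 of the 6 home cage mice and that of Y397D-T3 above all 6, and all 4 trained ranges overlapped the home cage range. On the log2(FPKM + 1) scale the differences were 0.33 among VEH-T10 mice, 0.23 among Y397F-T10 mice, 0.25 among VEH-T3 mice and 0.41 among Y397D-T3 mice (standard error 0.114 each), and without VEH-HC mouse 4 they were 0.40, 0.30, 0.32 and 0.48 (n = 6 mice per condition, 5 among VEH-HC mice without mouse 4).

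Cabp7 moved in the same direction with less overlap. Lowest, median and highest FPKM were 83.5, 94.0 and 99.5 among VEH-HC mice and 110.2, 119.2 and 141.4 among VEH-T10 mice, so all 6 VEH-T10 mice lay above all home cage mice. The values were 91.3, 108.3 and 124.4 among Y397F-T10 mice, 90.2, 107.7 and 135.6 among VEH-T3 mice and 97.7, 120.5 and 133.0 among Y397D-T3 mice, where 4, 5 and 5 of the 6 mice lay above the highest home cage mouse. The log2 differences were 0.39 among VEH-T10 mice, 0.22 among Y397F-T10 mice, 0.25 among VEH-T3 mice and 0.36 among Y397D-T3 mice (standard error 0.0855 each). Cabp7 in VEH-T10 stood at percentile 99.1 of all tested differences of that comparison, a high rank that follows from its choice by such a difference.

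Tesc was also higher after training, and most so after 10 min. Its lowest, median and highest FPKM were 35.6, 39.7 and 52.7 among VEH-HC mice, 47.2, 53.5 and 58.2 among VEH-T10 mice, 40.9, 52.3 and 58.8 among Y397F-T10 mice, 41.8, 46.5 and 51.1 among VEH-T3 mice, and 44.0, 49.6 and 55.9 among Y397D-T3 mice. VEH-HC mouse 4 again had the highest home cage value (52.7 FPKM), and the next was 43.8. With that mouse, all 6 VEH-T3 mice fell inside the home cage range. The log2 differences were 0.34, 0.29, 0.15 and 0.27 in VEH-T10, Y397F-T10, VEH-T3 and lastly Y397D-T3 (standard error 0.085 each), and 0.41, 0.36, 0.22 and 0.34 without VEH-HC mouse 4.

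Hpcal1, the closest relative of Hpca in the group, was lower in all trained conditions. Home cage mice lay within a narrow band, with a lowest, median and highest FPKM of 30.7, 31.8 and 33.1 (31.9 ± 0.935, SD, n = 6). The trained values were 20.4, 23.8 and 30.9 among VEH-T10 mice, 16.8, 23.2 and 30.8 among Y397F-T10 mice, 19.7, 22.2 and 29.6 among VEH-T3 mice, and 19.9, 24.4 and 34.8 among Y397D-T3 mice. In each trained condition 5 or 6 of the 6 mice lay below the lowest home cage mouse, and the coefficient of variation was between 15.2% and 21.6%, against 2.93% in the home cage. The log2 differences were -0.39, -0.48, -0.46 and -0.37 in VEH-T10, Y397F-T10, VEH-T3 and lastly Y397D-T3 (standard error 0.125 each).

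**Figure D1:**
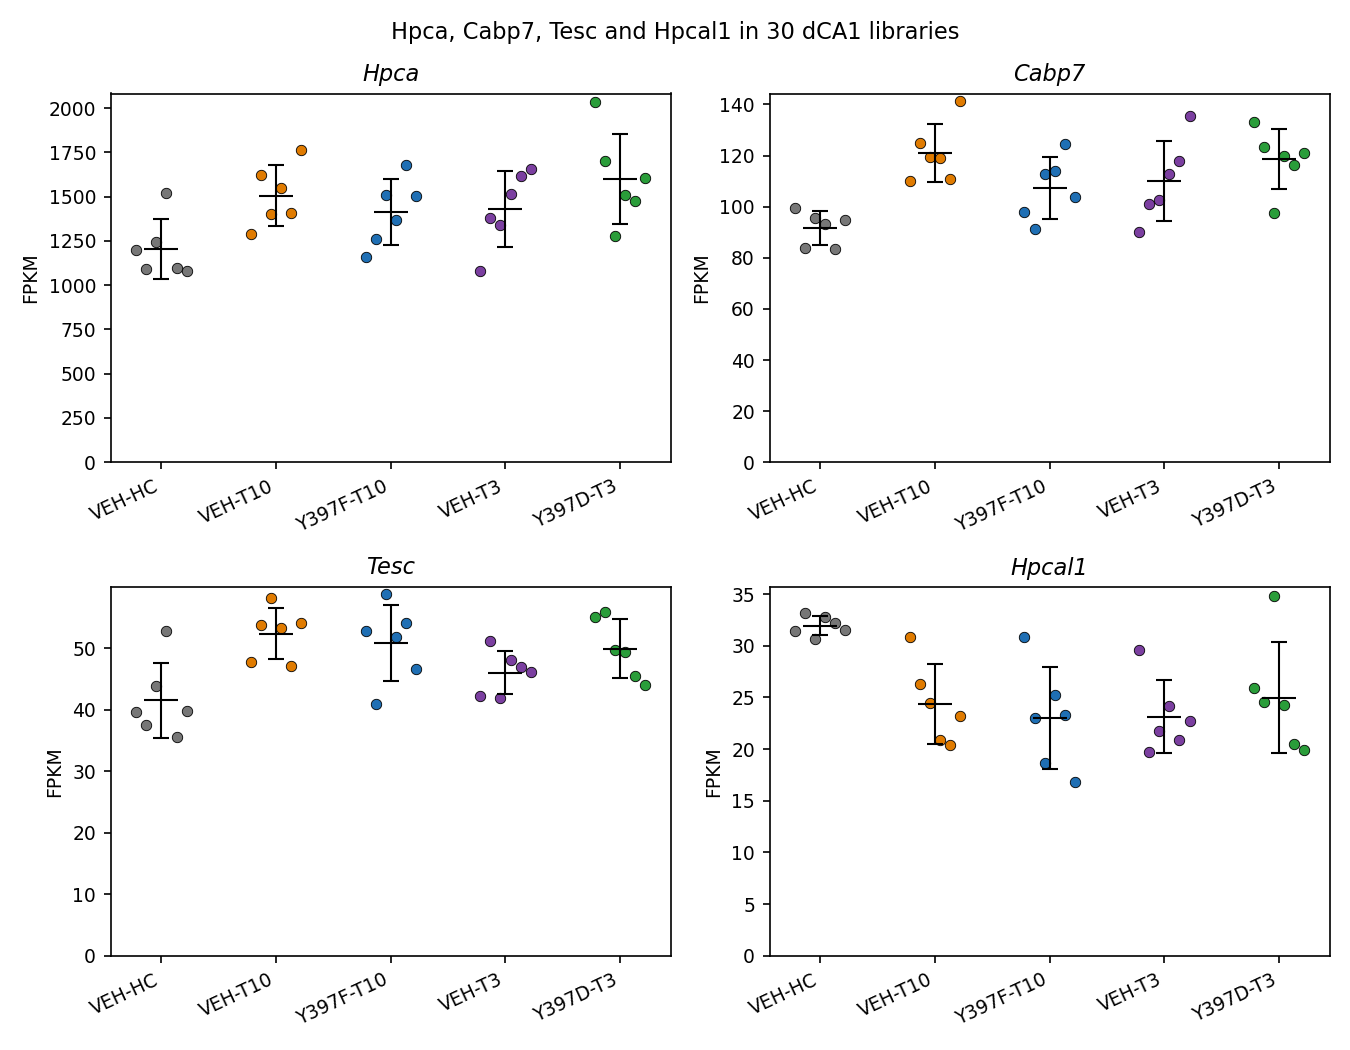
FPKM (linear axis from 0) of Hpca, Cabp7, Tesc and Hpcal1 in each of the 6 mice of the 5 conditions, in order of replicate number from left to right within a condition, with the mean (bar) and SD (whiskers). Cabp7 in VEH-T10 lies above all home cage mice, while in Hpcal1 a single mouse of each trained condition sits at 29.6 to 34.8 FPKM, near the home cage band of 30.7 to 33.1.

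A single mouse in each trained condition had Hpcal1 near or above the home cage band: VEH-T10 mouse 1 at 30.9 FPKM, Y397F-T10 mouse 1 at 30.8, VEH-T3 mouse 1 at 29.6 and Y397D-T3 mouse 3 at 34.8. The same 4 mice had the lowest Hpca of their condition (1288, 1158, 1077 and 1276 FPKM) and the highest Hpcal4 (232.7, 256.5, 223.6 and 225.4 FPKM). They also had the highest level of deep-cortex markers of their condition, as described below.

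Among the other 5 genes, Vsnl1 leaned lower after training. Vsnl1, a visinin-like protein known to bind the nicotinic receptor subunit encoded by Chrna4, had a lowest, median and highest FPKM of 258.6, 274.4 and 286.2 in VEH-HC. The trained medians were 233.0 among VEH-T10 mice, 217.8 among Y397F-T10 mice, 234.8 among VEH-T3 mice and 247.7 among Y397D-T3 mice, with single mice between 195.4 and 337.3 FPKM. In VEH-T10, Y397F-T10 and VEH-T3, 5 of 6 mice lay below the lowest home cage mouse, and in Y397D-T3 4 did. The log2 differences were -0.22, -0.26, -0.18 and -0.10 (standard error 0.0998 each).

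Cabp1 had its highest median in VEH-T10. Its lowest, median and highest FPKM were 49.3, 53.9 and 76.2 among VEH-HC mice, 60.0, 65.8 and 79.8 among VEH-T10 mice, 53.0, 60.9 and 69.1 among Y397F-T10 mice, 43.2, 55.7 and 62.4 among VEH-T3 mice, and 52.1, 61.0 and 66.7 among Y397D-T3 mice. All 6 VEH-T10 mice were above 5 of the 6 home cage mice, the exception being VEH-HC mouse 4 at 76.2 FPKM. The log2 differences to the home cage were 0.24, 0.10, -0.04 and 0.09, and without that mouse 0.32, 0.19, 0.04 and 0.18.

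Hpcal4, Ncald and Ncs1 differed least from the home cage in their means. Their log2 differences lay between -0.17 (Hpcal4 among VEH-T3 mice) and 0.05 (Ncald among Y397D-T3 mice). Hpcal4 spread from 155 to 256.5 FPKM in the trained mice, against 186 to 203.9 in the home cage. In VEH-T3, 5 of 6 mice lay below the lowest home cage mouse and 1 above the highest, and in Y397D-T3 4 lay below and 2 above. Ncald (neurocalcin delta) ranged from 138.0 to 190.1 FPKM over all mice, and Ncs1, a regulator of phosphatidylinositol 4-kinase, from 78.9 to 109.7.

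**Figure D2:**
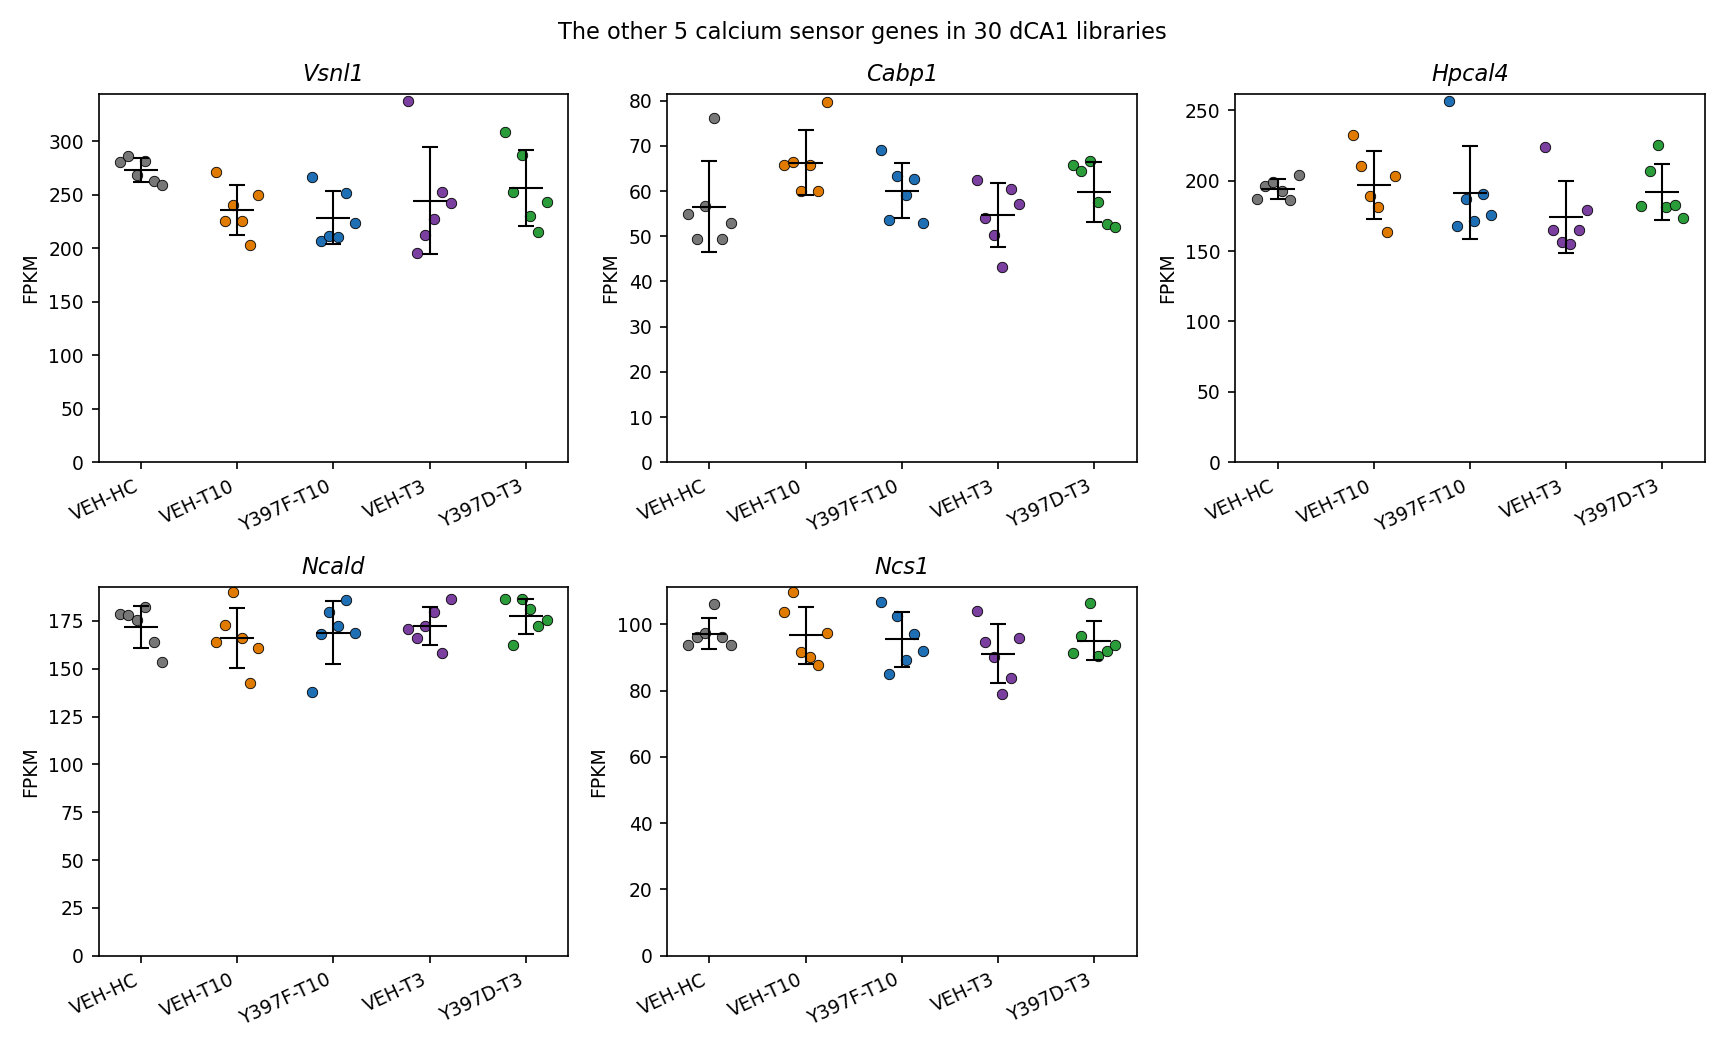
FPKM (linear axis from 0) of Vsnl1, Cabp1, Hpcal4, Ncald and Ncs1 in each mouse of the 5 conditions, with the mean (bar) and SD (whiskers). Most trained Vsnl1 values lie below the home cage band of 258.6 to 286.2 FPKM, and the Hpcal4 values of the trained mice spread to both sides of theirs.

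In limma, fitted across all 13184 rows with a threshold of 0.05 on the Benjamini-Hochberg adjusted p, 0.819% of rows were called in VEH-T10 against VEH-HC, 1.13% for Y397F-T10, 5.17% for VEH-T3 and 7.07% for Y397D-T3. The members called were Cabp7 (higher) among VEH-T10 mice, none of 9 among Y397F-T10 mice, Hpcal1 (lower) among VEH-T3 mice, and Cabp7 and Hpca (higher) among Y397D-T3 mice. At an unadjusted p under 0.05 the members numbered 6, 4, 3 and 4, in comparisons where 14.9%, 16.9%, 21.6% and 24.9% of all rows passed. A Cyber-T-style test without adjustment over genes gave 4, 2, 1 and 4 members, and 3.3%, 3.22%, 4.69% and 7.8% of all rows. The Hpcal1 call (-0.46) was lost without VEH-HC mouse 4 (-0.45), with libraries centred on their median (-0.44), with only the 12 libraries compared (-0.46) and with a length and GC trend removed (-0.37), with limma adjusted p between 0.07 and 0.182. The Hpca call in Y397D-T3 was lost without the filter on mean FPKM (0.41, limma adjusted p = 0.0517). Without VEH-HC mouse 4, Tesc was also called, in VEH-T10 (0.41) and Y397D-T3 (0.34). These are the contrasts by which the group was chosen. The counts, calls and adjusted p values of the members, kept or lost, therefore describe the choice and are not tests of these genes. The 4 contrasts share the same 6 home cage libraries. The median log2 difference over the 9 genes was 0.01, -0.03, -0.04 and 0.05, beside -0.03, -0.04, -0.04 and -0.03 over all tested rows.

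The comparison of Y397F-T10 with VEH-T10 asks whether the Y397F CREST altered expression after threshold training. None of the 9 genes was called by limma, at an unadjusted p under 0.05 or by the Cyber-T-style test, in a comparison in which 0% of all rows were called (3.78% at an unadjusted p under 0.05, 0.197% by the Cyber-T-style test). Cabp7 had the largest difference, from a mean of 121.0 to 107.4 FPKM (log2 difference -0.17, 95% interval -0.35 to 0.00, limma adjusted p = 1.0). For Hpca the difference was -0.10 with an interval of -0.33 to 0.14, for Tesc -0.05 with -0.22 to 0.13, and for Hpcal1 -0.09 with -0.35 to 0.17. Ncald (0.02) was the member on the higher side, and the median over the 9 genes was -0.05, beside -0.01 over all rows.

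The comparison of Y397D-T3 with VEH-T3 asks the same of the Y397D CREST after subthreshold training. Again none of the 9 genes was called by limma, at an unadjusted p under 0.05 or by the Cyber-T-style test, where limma called 0.00758% of all rows, 7.87% passed at an unadjusted p under 0.05 and 0.599% by the Cyber-T-style test. All 9 log2 differences were above 0, from 0.04 (Ncald) to 0.16 (Hpca), with a median of 0.11 beside 0.00 over all rows. Hpca averaged 1431 ± 213 FPKM among VEH-T3 mice and 1599 ± 256 among Y397D-T3 mice (SD, n = 6), with an interval of -0.07 to 0.39. Cabp7 averaged 110.0 ± 15.8 and 118.5 ± 11.7 FPKM (difference 0.11, interval -0.06 to 0.29), and Tesc 46.0 ± 3.55 and 49.9 ± 4.84 FPKM (0.11, -0.06 to 0.29). Each of these differences was within the spread between mice. The 9 genes come from the same 12 libraries, so the shared sign is not 9 separate results.

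The training periods were compared in the vehicle mice, VEH-T10 against VEH-T3, where 0.0455% of all rows were called. No member passed, and 2 of the 9 had 95% intervals without adjustment that lay above 0, where 8.15% of all rows had an unadjusted p under 0.05. Cabp1 averaged 66.3 ± 7.22 FPKM among VEH-T10 mice and 54.6 ± 7.09 among VEH-T3 mice (log2 difference 0.28, 95% interval 0.08 to 0.48, limma adjusted p = 0.472). Tesc averaged 52.4 ± 4.18 and 46.0 ± 3.55 FPKM (0.18, 0.01 to 0.36, limma adjusted p = 0.61). The Cyber-T-style test, which does not adjust over genes, called Cabp1 alone among the 9 and 0.622% of all rows. For Cabp7 and Hpca the differences were 0.14 (-0.03 to 0.32) and 0.08 (-0.15 to 0.31), so neither gene was shown to differ between 10 and 3 min of training.

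Y397D-T3 mice were also set beside VEH-T10 mice, the pair of conditions in which Cabp7 was called against the home cage. Here 0.0379% of all rows were called and no member was, by limma, at an unadjusted p under 0.05 or by the Cyber-T-style test (8.97% and 1.42% of all rows). Cabp7 differed by -0.03 (95% interval -0.21 to 0.15), Hpca by 0.08 (-0.15 to 0.31), Tesc by -0.07 (-0.24 to 0.11) and Hpcal1 by 0.03 (-0.23 to 0.28). All of these differences were within the spread between mice, and the intervals do not show that the conditions were alike.

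**Figure D3:**
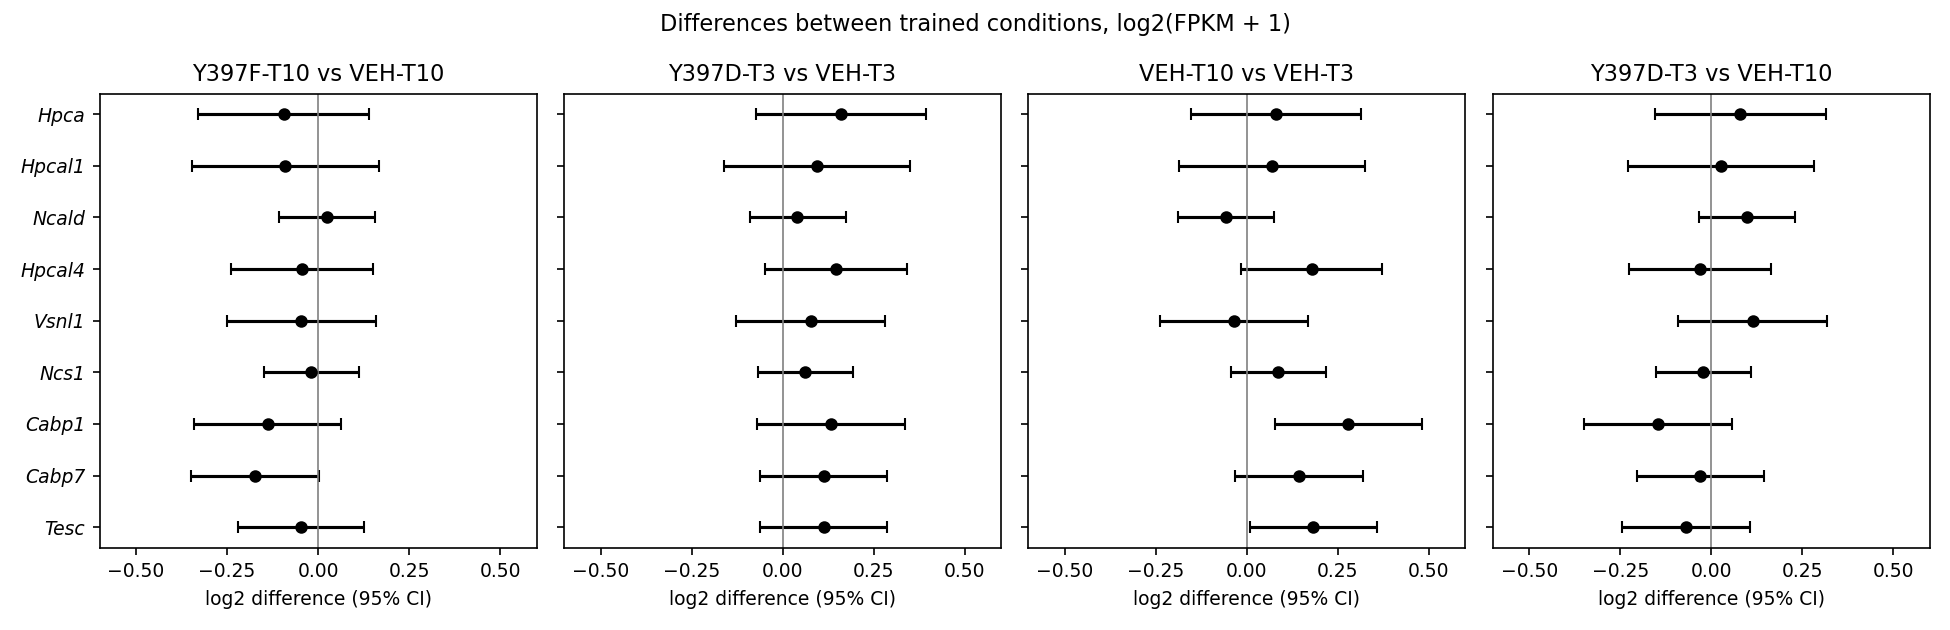
Log2 difference on the log2(FPKM + 1) scale (points) with its 95% interval from limma (bars, not adjusted over genes) for the 9 genes in the 4 comparisons between trained conditions. All intervals cross 0 except those of Cabp1 (0.08 to 0.48) and Tesc (0.01 to 0.36) in VEH-T10 against VEH-T3.

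Mice of the same condition differed from each other in a pattern that many of the 9 genes shared. After the mean of each condition was removed, 10 of 36 pairs of genes had a Pearson r over 0.5 across the 30 libraries and none was under -0.5, with a median of 0.27. Hpca and Cabp7 had r = 0.82, and Hpca and Tesc had 0.56. A second set was formed by Hpcal4 with Ncs1 (0.80), Hpcal4 with Hpcal1 (0.74), Hpcal4 with Vsnl1 (0.71) and Hpcal1 with Vsnl1 (0.67). Cabp1 was in 4 of the 10 pairs and linked to both sets, with Ncs1 (0.62), Tesc (0.60), Hpcal4 (0.54) and Vsnl1 (0.54), so that Tesc was nearer to Cabp1 than to Hpca or Cabp7 (0.46). Hpca and Hpcal1 had r = -0.44 and Hpca and Hpcal4 -0.39, so within a condition a mouse with more Hpca tended to have less Hpcal1 and Hpcal4. The points share libraries, and FPKM within a library are relative to its total.

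**Figure D4:**
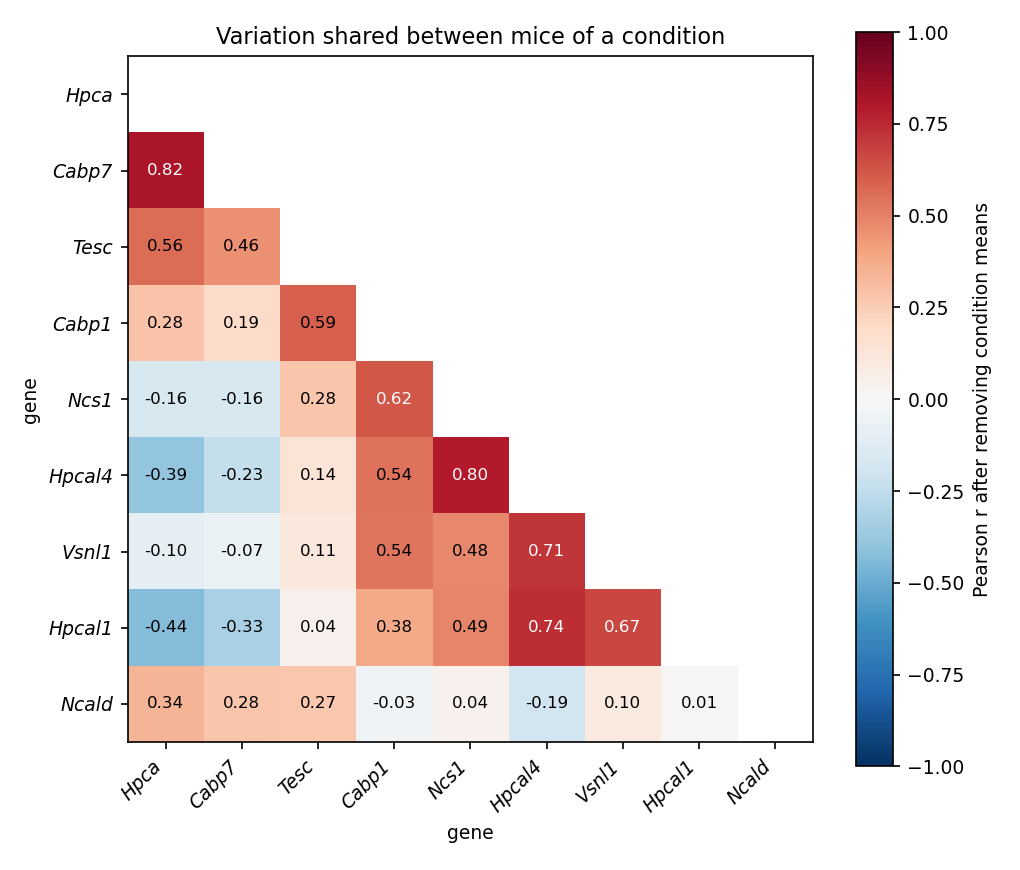
Pearson r of log2(FPKM + 1) between each pair of the 9 genes across 30 libraries, after subtraction of each condition's mean (red positive, blue negative). Hpca, Cabp7 and Tesc form one block (0.46 to 0.82) and Ncs1, Hpcal4, Vsnl1 and Hpcal1 another (0.48 to 0.80), while Cabp1 is over 0.5 with Tesc of the first and with Ncs1, Hpcal4 and Vsnl1 of the second.

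The genes most like the 4 leading members over the 30 libraries were found by the highest Pearson r among all tested rows, as a description. For Hpca these were Cnih2 (r = 0.91), an AMPA receptor auxiliary protein, Arhgef25 (0.91) and Brinp1 (0.90). For Cabp7 they were Arhgef25 (0.88), Hpca (0.87) and Fam19a1 (0.87), so that Hpca and Cabp7 shared Arhgef25. For Tesc they were Lurap1l (0.79), Pkp2 (0.77) and Rnf112 (0.77), and for Hpcal1 Ccdc136 (0.91), Sdr39u1 (0.89) and Mfge8 (0.89). The median r with all tested rows lay between -0.06 and 0.02 for these 4 genes. With condition means removed, r stayed between 0.62 and 0.91 in these 12 pairs.

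Some markers of deep cortical layers differed between conditions and followed these genes between mice. The list of Ctgf, Tle4, Foxp2, Nxph4, Cplx3 and Moxd1 had 4 of 6 genes at a mean of at least 1 FPKM and none at 0 throughout a condition. Its summed level ran from 21.9 to 26.1 FPKM among VEH-HC mice, 16.1 to 21.6 among VEH-T10 mice, 15.3 to 23.2 among Y397F-T10 mice, 17.5 to 30.3 among VEH-T3 mice and 16.6 to 23.8 among Y397D-T3 mice. Limma called 1 of the 4 tested markers, Ctgf, lower in VEH-T10 and in Y397D-T3 against VEH-HC, beside 0.819% and 7.07% of all rows. The Cyber-T-style test called Ctgf and Cplx3 lower in all 4 trained conditions. Ctgf differed by -0.92, -0.67, -0.56 and -0.74 and Cplx3 by -0.73, -0.69, -0.70 and -0.64. Tle4 lay within 0.02 of the home cage in each (0.003, -0.006, 0.012 and -0.018), and Moxd1 passed in no condition by limma, at an unadjusted p under 0.05 or by the Cyber-T-style test.

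The mean log2(FPKM + 1) of the 6 markers was then related to the 9 genes over the 30 libraries, within a family of 63 relations to 7 library measures. Over all libraries r was -0.82 for Hpca, -0.82 for Cabp7 and 0.76 for Hpcal1, values that include the difference between home cage and trained mice by which these genes were chosen and are given as a description. The test was therefore made on the deviations from the condition means, with 100000 permutations of libraries within conditions and Benjamini-Hochberg adjustment over the 63. Hpca had r = -0.75 (permutation p = 1e-05, the smallest these permutations can give, adjusted 0.000157) and a Spearman's coefficient of -0.70 (permutation p = 0.00013, adjusted 0.00164). Cabp7 had r = -0.71 (permutation p = 0.00024, adjusted 0.00252) and a Spearman's coefficient of -0.67 (permutation p = 0.00047, adjusted 0.0045). Hpcal1 went the other way with r = 0.68 (permutation p = 0.00048, adjusted 0.00432) and a Spearman's coefficient of 0.53 (permutation p = 0.00867, adjusted 0.039). Without the 2 libraries farthest from the median of the markers' deviations, r was -0.65, -0.58 and 0.54. For Hpcal4, r = 0.54 (adjusted permutation p = 0.0462) rested on those 2 libraries (0.25 without them, Spearman's coefficient 0.06), and Vsnl1 (0.56, adjusted permutation p = 0.0805) and Tesc (-0.35, 0.141) did not pass.

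**Figure D5:**
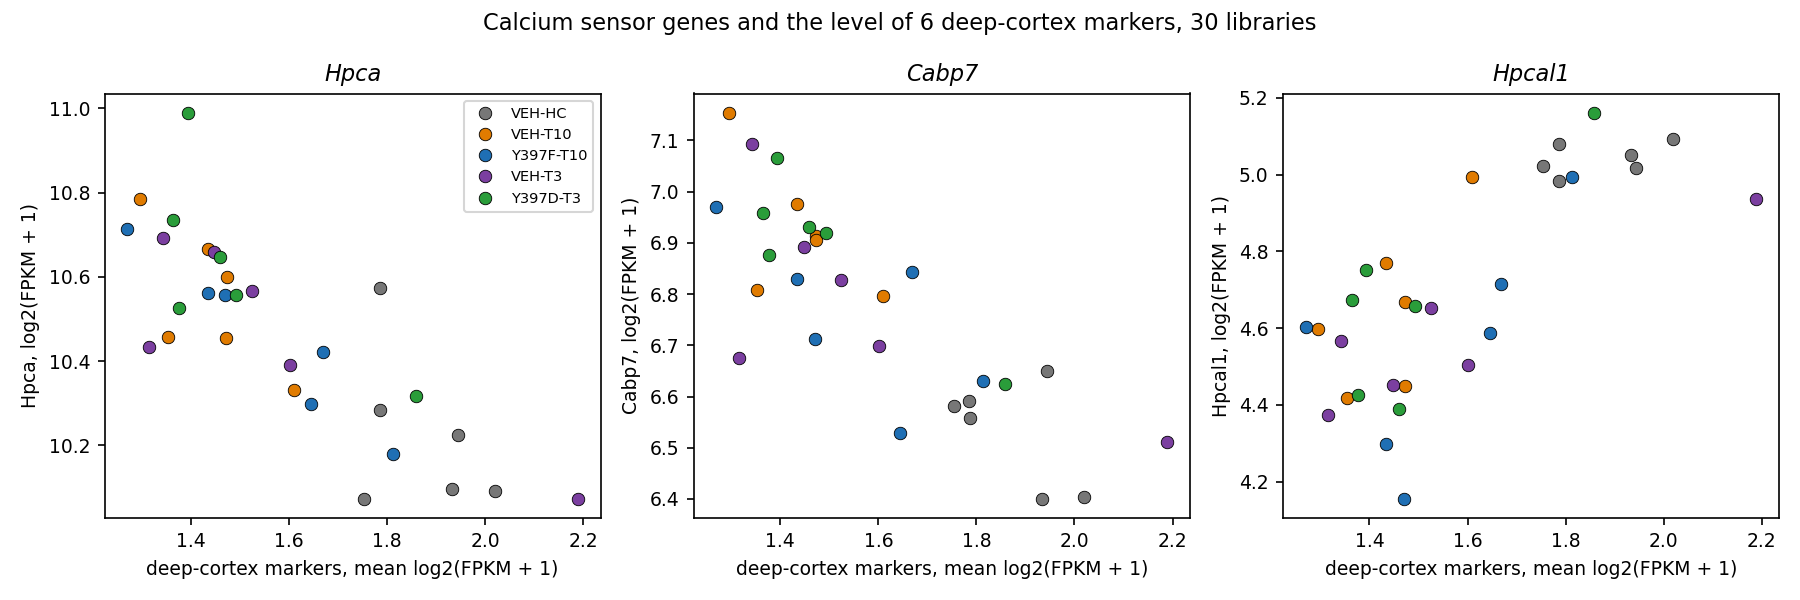
Log2(FPKM + 1) of Hpca, Cabp7 and Hpcal1 in each library against the mean log2(FPKM + 1) of 6 deep-cortex markers, colored by condition. Libraries with more of the markers have less Hpca and Cabp7 (r = -0.82 each over all libraries, -0.75 and -0.71 within conditions) and more Hpcal1 (0.76 and 0.68), and the VEH-HC mice lie at the high end of the markers together with a few trained mice.

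The 4 trained mice with Hpcal1 near the home cage band had marker levels of 1.61 (VEH-T10 mouse 1), 1.81 (Y397F-T10 mouse 1), 2.19 (VEH-T3 mouse 1) and 1.86 (Y397D-T3 mouse 3), each the highest of its condition, while the home cage mice had 1.75 to 2.02. With the marker level as a covariate in limma, a fit added after the data were seen, Hpca differed from VEH-HC by 0.00, -0.01, 0.02 and 0.12 in VEH-T10, Y397F-T10, VEH-T3 and lastly Y397D-T3, in place of 0.33, 0.23, 0.25 and 0.41. Cabp7 differed by 0.16, 0.05, 0.09 and 0.16, Tesc by 0.22, 0.20, 0.07 and 0.17, and Hpcal1 by -0.06, -0.24, -0.23 and -0.07. Rows called against VEH-HC were 0, 5, 46 and 208 in this fit, and no member was called in any of the 8 comparisons. The summed marker level itself had a lower median in each trained condition than in the home cage, so training and the marker level cannot be told apart in these comparisons.

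Other library measures followed other members, again in deviations from the condition means with adjustment over the 63 relations. The median FPKM of a library was related to Ncs1 (r = -0.83, adjusted permutation p = 0.000157), Hpcal4 (-0.80, 0.000157) and Cabp1 (-0.55, 0.0113), of which Cabp1 is the gene with the largest difference between the training periods. Thalamic markers, with summed levels between 12.3 and 51.4 FPKM, were related to Hpcal4 (r = -0.84), Ncs1 (-0.72), Hpcal1 (-0.65), Cabp1 (-0.52) and Vsnl1 (-0.48), with adjusted permutation p between 0.000157 and 0.0306. Of the 6 thalamic markers limma called Slc17a6 lower against VEH-HC in VEH-T10 (-1.07), Y397F-T10 (-1.12) and Y397D-T3 (-0.95), and Tcf7l2 lower in Y397D-T3 (-0.37). Limma called 0.819%, 1.13% and 7.07% of all rows in these comparisons. Choroid plexus markers had a median sum of 3154 FPKM in VEH-HC, 101.6 in VEH-T10, 55.9 for Y397F-T10, 1957 for VEH-T3 and 124.5 for Y397D-T3, and within conditions they were related to Ncs1 (r = -0.64, adjusted permutation p = 0.0105) and Cabp1 (-0.45, 0.0462). None of the 6 choroid markers was called by limma against VEH-HC, while 3, 0, 0 and 5 passed at an unadjusted p under 0.05 and 5, 3, 0 and 6 by the Cyber-T-style test. Of all rows, 14.9%, 16.9%, 21.6% and 24.9% passed the former and 3.3%, 3.22%, 4.69% and 7.8% the latter. Dentate markers were related to Vsnl1 (r = -0.66), Hpcal4 (-0.63), Cabp1 (-0.54) and, in the other direction, Ncald (0.59), with adjusted permutation p between 0.00756 and 0.0306. By Spearman's coefficient 4 of these 14 relations missed the threshold, those of Hpcal1 (-0.48, adjusted permutation p = 0.0681) and Vsnl1 (-0.45, 0.0764) with thalamic markers, Cabp1 (-0.47, 0.0505) with choroid markers and Hpcal4 (-0.44, 0.132) with dentate markers. Without the 2 libraries farthest from the median of each measure, r kept its sign in all 14 and was nearest to 0 for Hpcal4 with dentate markers (-0.31) and farthest for Ncs1 with the library median (-0.78). None of the 9 genes was related to the estimated relative depth of the library or to the CA1 markers at that threshold. The part of these measures in the members' levels was not tested.

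The wider calcium sensor pathway was read from lists of related genes. Of 7 other members of the sensor family, 4 were measured at a mean of at least 1 FPKM, and Kcnip3 (calsenilin/DREAM, a sensor that also binds DNA) was called lower in VEH-T3 against VEH-HC, at 28.2 ± 3.10 FPKM in VEH-T3 and 35.1 ± 2.40 in VEH-HC (log2 difference -0.31, limma adjusted p = 0.0206). That call was lost without VEH-HC mouse 4 (-0.29, limma adjusted p = 0.0554). Of all rows, 5.17% were called in VEH-T3 against VEH-HC. Kcnip1 and Kcnip2, which modulate A-type potassium channels, had median levels of 7.86 and 77.7 FPKM in VEH-HC and were not called by limma. The Cyber-T-style test called Kcnip1 lower in VEH-T10 (-0.33) and Y397F-T10 (-0.33). Over the 4 genes, 3, 2, 2 and 3 had an unadjusted p under 0.05 in the 4 trained conditions against VEH-HC. Of all rows, 14.9%, 16.9%, 21.6% and 24.9% did. Of 4 further calcium-binding proteins of the Cabp branch, Caln1 was tested and not called in any comparison, at an unadjusted p under 0.05 or by the Cyber-T-style test.

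Calcineurin genes moved in both directions. Of 10 listed, 8 were tested, and 1 was called higher and 2 lower in VEH-T3 and likewise in Y397D-T3 against VEH-HC, where 5.17% and 7.07% of all rows were called, with none in VEH-T10 or Y397F-T10. At an unadjusted p under 0.05 the counts were 4, 4, 5 and 6 in the 4 trained conditions, and by the Cyber-T-style test 1, 1, 1 and 2. Of all rows, 14.9%, 16.9%, 21.6% and 24.9% passed the former and 3.3%, 3.22%, 4.69% and 7.8% the latter. Ppp3ca, the main catalytic subunit in brain, rose from 379 ± 21.9 FPKM among VEH-HC mice to 471 ± 57.3 among VEH-T3 mice and 486 ± 23.6 among Y397D-T3 mice (log2 differences 0.31 and 0.36, limma adjusted p = 0.0429 and 0.0158). Chp1, a relative of Tesc that also binds NHE1, fell from 57.1 ± 1.24 to 50.6 ± 3.38 and 48.05 ± 2.69 FPKM (-0.17 and -0.25, limma adjusted p = 0.0417 and 0.00455), opposite in direction to the Tesc level. Rcan3, a calcineurin regulator, fell in Y397D-T3 (-0.21, limma adjusted p = 0.0199). The second gene lower in VEH-T3 was Ppp3cc (-0.22, limma adjusted p = 0.0499), named after its value was seen. Without VEH-HC mouse 4 the VEH-T3 calls of Ppp3ca, Chp1 and Ppp3cc were lost (limma adjusted p = 0.0722, 0.0915 and 0.086), while the log2 differences were 0.32, -0.17 and -0.22.

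Of 8 listed EF-hand buffers and related proteins, 7 were tested, and Calb2 (calretinin) was called lower in VEH-T3 and Y397D-T3. Limma called 5.17% and 7.07% of all rows in those comparisons with VEH-HC. Calb2 averaged 32.25 ± 7.99 FPKM among VEH-HC mice, 13.8 ± 9.72 among VEH-T3 mice and 11.1 ± 4.64 among Y397D-T3 mice (log2 differences -1.37 and -1.50, limma adjusted p = 0.0299 and 0.0138). The VEH-T3 call was lost without VEH-HC mouse 4 (-1.41, limma adjusted p = 0.0579). The means of Calb2 in VEH-T10 and Y397F-T10 were 15.8 and 14.7 FPKM. Necab2 and Necab3 were not called by limma. The Cyber-T-style test called Necab2 lower in Y397F-T10 (-0.43), VEH-T3 (-0.46) and Y397D-T3 (-0.38), Necab3 lower in Y397F-T10 (-0.38), and Necab1, named after its values were seen, lower in VEH-T10, VEH-T3 and Y397D-T3. Over the 7 genes, 3, 3, 4 and 4 had an unadjusted p under 0.05 in the 4 trained conditions, and 2, 3, 3 and 3 passed the Cyber-T-style test. Of all rows, 14.9%, 16.9%, 21.6% and 24.9% passed the former and 3.3%, 3.22%, 4.69% and 7.8% the latter. Of 5 calmodulin genes 4 were tested, and none was called in any comparison (2 in Y397D-T3 against VEH-HC and 1 in Y397D-T3 against VEH-T3 at an unadjusted p under 0.05, and 1 in the former by the Cyber-T-style test). In Y397D-T3 against VEH-T3, 7.87% of all rows passed at an unadjusted p under 0.05. Calm2 and Calm3 were at a median of 1128 and 1039 FPKM in VEH-HC, of the same order as Hpca.

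Among 15 listed binding partners of the sensors, 14 were in the table and 11 were tested. Chrna4, the partner of Vsnl1, was called lower in VEH-T10, VEH-T3 and Y397D-T3 against VEH-HC, with a mean of 5.04 ± 0.388 FPKM in VEH-HC and of 3.02 to 3.33 in the 4 trained conditions (log2 differences -0.60, -0.54 and -0.50, limma adjusted p = 0.0308, 0.0244 and 0.0266), of which the VEH-T3 call was lost without VEH-HC mouse 4 (-0.55, limma adjusted p = 0.0522). Nsmf, which encodes the caldendrin partner Jacob, was called higher in Y397D-T3, from 273 ± 13.6 to 328 ± 18.7 FPKM (0.26, limma adjusted p = 0.0161). Cacna1a, the pore subunit of P/Q-type calcium channels that Cabp1 and Ncs1 modulate, was called higher there as well (23.2 ± 1.75 to 28.8 ± 2.87 FPKM, 0.29, limma adjusted p = 0.0175). With the deep-cortex marker level as a covariate, none of the list genes named as called here kept its call. With only the 12 libraries compared, 0 rows were called in VEH-T3 against VEH-HC. The VEH-T3 calls of Kcnip3, Ppp3ca, Chp1, Ppp3cc, Calb2 and Chrna4 were therefore all lost there. Over all alternatives, the called genes of these lists kept a call in 91 checks and lost it in 49. In the 4 comparisons between trained conditions, none of the genes on these 6 lists was called by limma or the Cyber-T-style test. An unadjusted p under 0.05 was found for 2 calcineurin genes in Y397D-T3 against VEH-T10, for 1 calmodulin gene in Y397D-T3 against VEH-T3, and for 1 partner in each of Y397F-T10 against VEH-T10 and Y397D-T3 against VEH-T3. Of all rows, 8.97% passed in Y397D-T3 against VEH-T10, 7.87% in Y397D-T3 against VEH-T3 and 3.78% in Y397F-T10 against VEH-T10.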

How the data were processed

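Reads of 30 libraries were processed by the authors with TopHat2 2.1.1 against mm10 and with Cufflinks 2.2.1, and the deposited table holds FPKM per gene, that is fragments scaled to transcript length and to the mapped fragments of the library. How strand was treated and the depth of each library are not given in the sources used here. Relative depth was therefore estimated from the spacing of low FPKM values and ran from 0.8094 to 1.244 of the median library, and no counting interval was computed. The residual of this estimate over pairs of libraries had a median of 1.61e-15 and a largest value of 1.0 on the log2 scale. The authors' own comparisons were not used.

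Values were tested on the log2(FPKM + 1) scale with limma 3.58.1 (R 4.3.3) with a mean-variance trend, over all 30 libraries with 5 conditions, for the 13184 of 24883 rows with a mean of at least 1 FPKM, followed by Benjamini-Hochberg adjustment at 0.05 in each of 8 comparisons. Each library is a separate mouse. Relations to library measures were tested on deviations from condition means, by permutation within conditions (numpy 2.4.6), a choice made after the data were seen. A Cyber-T-style test, which borrows variance from 101 genes of like level, followed the test of the study without adjustment over genes. The alternatives were another pseudocount, no filter, centring on library medians, 12 libraries alone, summed symbols, a replicate block, removal of a length and GC trend, omission of VEH-HC mouse 4 and, added after the data were seen, a deep-cortex covariate. Steps were tested on simulated data.

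Members and lists were chosen with earlier results of these data known. From each list the text names up to 3 genes with the lowest adjusted p in any comparison, and for Hpca, Cabp7, Tesc and Hpcal1 the 3 genes with the highest r. Promoters came from RefSeq (GRCm38.p6) and gene coordinates from GENCODE (GRCm38). Same-numbered mice were checked for shared deviations, with a median r of 0.042 over 60 pairs and a range from -0.496 to 0.84. A median near 0 with so wide a range does not settle whether the numbers pair mice, and the main fit did not pair them.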

Additional observations from a re-analysis of the deposited data

Results flagged for a closer look

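Within each condition of 6 mice, the gap between the highest or lowest mouse and its neighbor was divided by the whole range and set against Dixon's 95% critical value of 0.625, for 9 genes in 5 conditions (45 groups). About 1 in 20 such groups is expected by chance, and 6 were found. Cabp1 was high in VEH-HC mouse 4 at 76.17 FPKM (ratio 0.724) and in VEH-T10 mouse 6 at 79.76 FPKM (0.670). Ncs1 was high in the same home cage mouse at 106.0 FPKM (0.690). Hpcal4 was high in Y397F-T10 mouse 1 at 256.5 FPKM (0.739) and in VEH-T3 mouse 1 at 223.6 FPKM (0.654), which are the mice with the highest Hpcal1 of their conditions. Ncald was low in Y397F-T10 mouse 1 at 138.0 FPKM (0.632). Hpca, Cabp7, Tesc, Hpcal1 and Vsnl1 had no such mouse in any condition. The cause of these values was not tested.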

How the results depend on the processing

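The log2 differences of the 9 genes kept their direction and their side of the threshold in 631 comparisons with an alternative, became called in 19, lost a call in 9 and changed sign in 25, and the causes were not tested. These counts mix thresholds, because the Cyber-T-style test was read at a p not adjusted over genes and the limma fits at an adjusted p. Counts of calls are given as rows called and, where it changed, members called. With libraries centred on their median, the counts against VEH-HC were 46 for VEH-T10, 42 for Y397F-T10 and 341 for VEH-T3 (members 0, Hpcal1 lost), and 0 in Y397D-T3 against VEH-T3 and in VEH-T10 against VEH-T3. The higher share of calls went from 38.9% to 71.7% in VEH-T10 and reached 71.4%, 70.1% and 73.6% in the other 3 trained conditions (73.6%, 84.1%, 84.9% and 79.1% with the length and GC trend removed). With only the 12 libraries compared, VEH-T10 had 321 (members 2, 28.3% higher), Y397F-T10 43 (14% higher), VEH-T3 0 (members 0, Hpcal1 lost) and Y397D-T3 1845 (37.1% higher), and the comparisons of Y397D-T3 with VEH-T3, of VEH-T10 with VEH-T3 and of Y397D-T3 with VEH-T10 had 0, 0 and 1. With a replicate block, members called were 2 for VEH-T10 and 1 for Y397F-T10, and rows called were 0 in Y397D-T3 against VEH-T3, 0 in VEH-T10 against VEH-T3 and 3 in Y397D-T3 against VEH-T10. Same-numbered mice correlated with r from -0.496 to 0.84 in their deviations, 24 of 60 pairs over 0.1, and 8 of 30 libraries correlated best with their own number, so the block rests on a shared number only. The Cyber-T-style test called 435 rows in VEH-T10 (members 4), 424 in Y397F-T10 (2), 4 members in Y397D-T3, 26 rows for the Y397F plasmid against vehicle after 10 min, 79 for the Y397D plasmid against vehicle after 3 min, 82 (member 1) between vehicle mice trained for 10 and 3 min, and 187 in Y397D-T3 against VEH-T10. Without VEH-HC mouse 4, the counts were 95 in VEH-T10 (members 2), 18 in Y397F-T10, 155 in VEH-T3 (members 0) and 665 in Y397D-T3 (members 3). With the length and GC trend removed, VEH-T10 had 2 members called, Y397F-T10 69 rows and VEH-T3 325 rows, and the comparisons of Y397D-T3 and of VEH-T10 with VEH-T3 had 0 each. Without the filter, Y397D-T3 had 1 member called and Y397D-T3 against VEH-T3 had 0 rows. With the deep-cortex covariate, chosen after the data were seen, rows called were 0, 5, 46 and 208 in the 4 trained conditions against VEH-HC, with 0 members in each.

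Changes of sign were small in most cases. With centring, Ncs1 was 0.022 in VEH-T10 and 0.004 in Y397D-T3, and Hpcal4 was 0.016 in Y397D-T3. Without VEH-HC mouse 4, Ncs1 was 0.015 in VEH-T10 and Cabp1 0.044 in VEH-T3. With the length and GC trend removed, Ncs1 was 0.038, 0.028 and 0.025 in VEH-T10, Y397F-T10 and Y397D-T3, Hpcal4 was 0.066 in Y397F-T10, 0.038 in Y397D-T3 and 0.01 in Y397F-T10 against VEH-T10, Ncald was 0.001 in Y397F-T10 and Cabp1 was 0.062 in VEH-T3. With the deep-cortex covariate, Hpca was -0.002 in VEH-T10, -0.013 in Y397F-T10 and -0.019 in VEH-T10 against VEH-T3, Ncs1 was 0.07, 0.03 and 0.038 in VEH-T10, Y397F-T10 and Y397D-T3, Hpcal4 was 0.112 in Y397F-T10 and 0.153 in Y397D-T3, Ncald was -0.009 in VEH-T3, Vsnl1 was 0.086 in Y397D-T3 and 0.029 in VEH-T10 against VEH-T3, and Hpcal1 was -0.013 in Y397D-T3 against VEH-T10. Without counts, precision rests on the spread between mice.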
